A study of Homo sapiens with 108 samples.

Results

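Mitochondrial ribosomal protein mRNAs were followed in HEK293T cells, an established human embryonic kidney line, in which 8 zinc-finger proteins had been targeted by short hairpin RNAs (shRNAs). The members were the protein-coding genes whose symbol is MRPL or MRPS, a number and an optional letter, and 78 of the 19761 genes in the count tables met that rule, 49 named MRPL and 29 named MRPS. By protein, 51 members belong to the large subunit and 26 to the small subunit, since MRPS18A and MRPS30 are large subunit proteins despite their names. The remaining member, MRPS36, is known as a subunit of the 2-oxoglutarate dehydrogenase complex.

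The mitochondrial ribosome translates the few mRNAs that the mitochondrial genome encodes, all of them for subunits of the oxidative phosphorylation complexes. Its ribosomal RNAs are made in the mitochondrion, whereas every one of its proteins is encoded in the nucleus, translated in the cytosol and imported. Some of these proteins have a counterpart in bacterial ribosomes and others are found in mitochondria alone.

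The series holds 108 libraries of thiol-linked alkylation sequencing (SLAM-seq), in which 4-thiouridine (4sU) built into new RNA is read as T>C conversions. Cells were transduced with a lentivirus carrying a non-targeting hairpin (NT) or a hairpin against MAZ, BRCA1, PHF7, CNOT4, ZNF706, ZMAT3, ZMAT5 or ZFP36L1, and were kept as puromycin-selected populations. All 9 arms received 10 µM 4sU for 24 h with fresh medium every 8 h, followed by 1 mM uridine for 0, 2, 4 or 8 h, with 3 biological replicates at each time. Polyadenylated RNA was read from its 3′ end in single reads and counted over 3′ untranslated regions (3′ UTRs), so that each arm has 12 libraries.

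Total counts ran from 2147447 to 30750027 reads in all but 2 libraries, which were the third replicate of PHF7 at 8 h with 63659 reads and the third replicate of CNOT4 at 2 h with 1781724. The CNOT4 and ZFP36L1 libraries stood apart from the others: a read covered 27.7 to 34.0 T positions in CNOT4 and 25.9 to 33.0 in ZFP36L1, against 37.1 to 37.8 in NT. Reads that mapped to several places made up 5.82% to 11.9% in CNOT4 and 9.21% to 12.4% in ZFP36L1, against 6.66% to 6.91% in NT. Within CNOT4 the 3 libraries at 8 h differed from the other 9, with 32.5 to 34.0 T positions a read against 27.7 to 31.3, and 5.82% to 5.91% of reads mapped to several places against 9.34% to 11.9%. The file headers call these 3 libraries pulse-chase and the other 105 chase. In CNOT4, chase at 8 h and kind of library therefore cannot be told apart. Against NT (log2 scale), the targeted mRNA was lower by edgeR's adjusted p in MAZ (-3.04), ZMAT5 (-3.26), ZMAT3 (-2.004) and ZNF706 (-1.03). It was not called in BRCA1 (-0.91, adjusted p = 0.22), PHF7 (-2.07, adjusted p = 0.34) or CNOT4 (-0.04, adjusted p = 0.95), and it was higher in the libraries labelled ZFP36L1 (0.80, adjusted p = 0.0023). Of 5 markers of this cell line, 4 exceeded 1 CPM in every arm and PAX2 did not. Of 11 markers of blood, liver, fibroblast, endothelial, skin and red cells, 10 stayed under 1.5 CPM in every arm and COL1A1 was the exception. The level summed over these 11 genes was 12.9 to 26.7 CPM in an arm.

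Taken as a sum, the 78 members held about 1% of the counted reads in every arm. Their share was 1.03% ± 0.05 (SD, n = 12 libraries) in NT, 0.92% ± 0.07 in CNOT4, 1.00% ± 0.05 in ZFP36L1, 1.11% ± 0.07 in MAZ, 1.11% ± 0.06 in ZMAT3 and 1.09% ± 0.09 in PHF7. BRCA1, ZMAT5 and ZNF706 lay between 1.02% and 1.06%. These are relative shares of bulk RNA, in which fewer cells and less RNA per cell cannot be told apart. Single members differed from NT in both directions, as the heat map of level differences shows for every member.

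**Figure D1:**
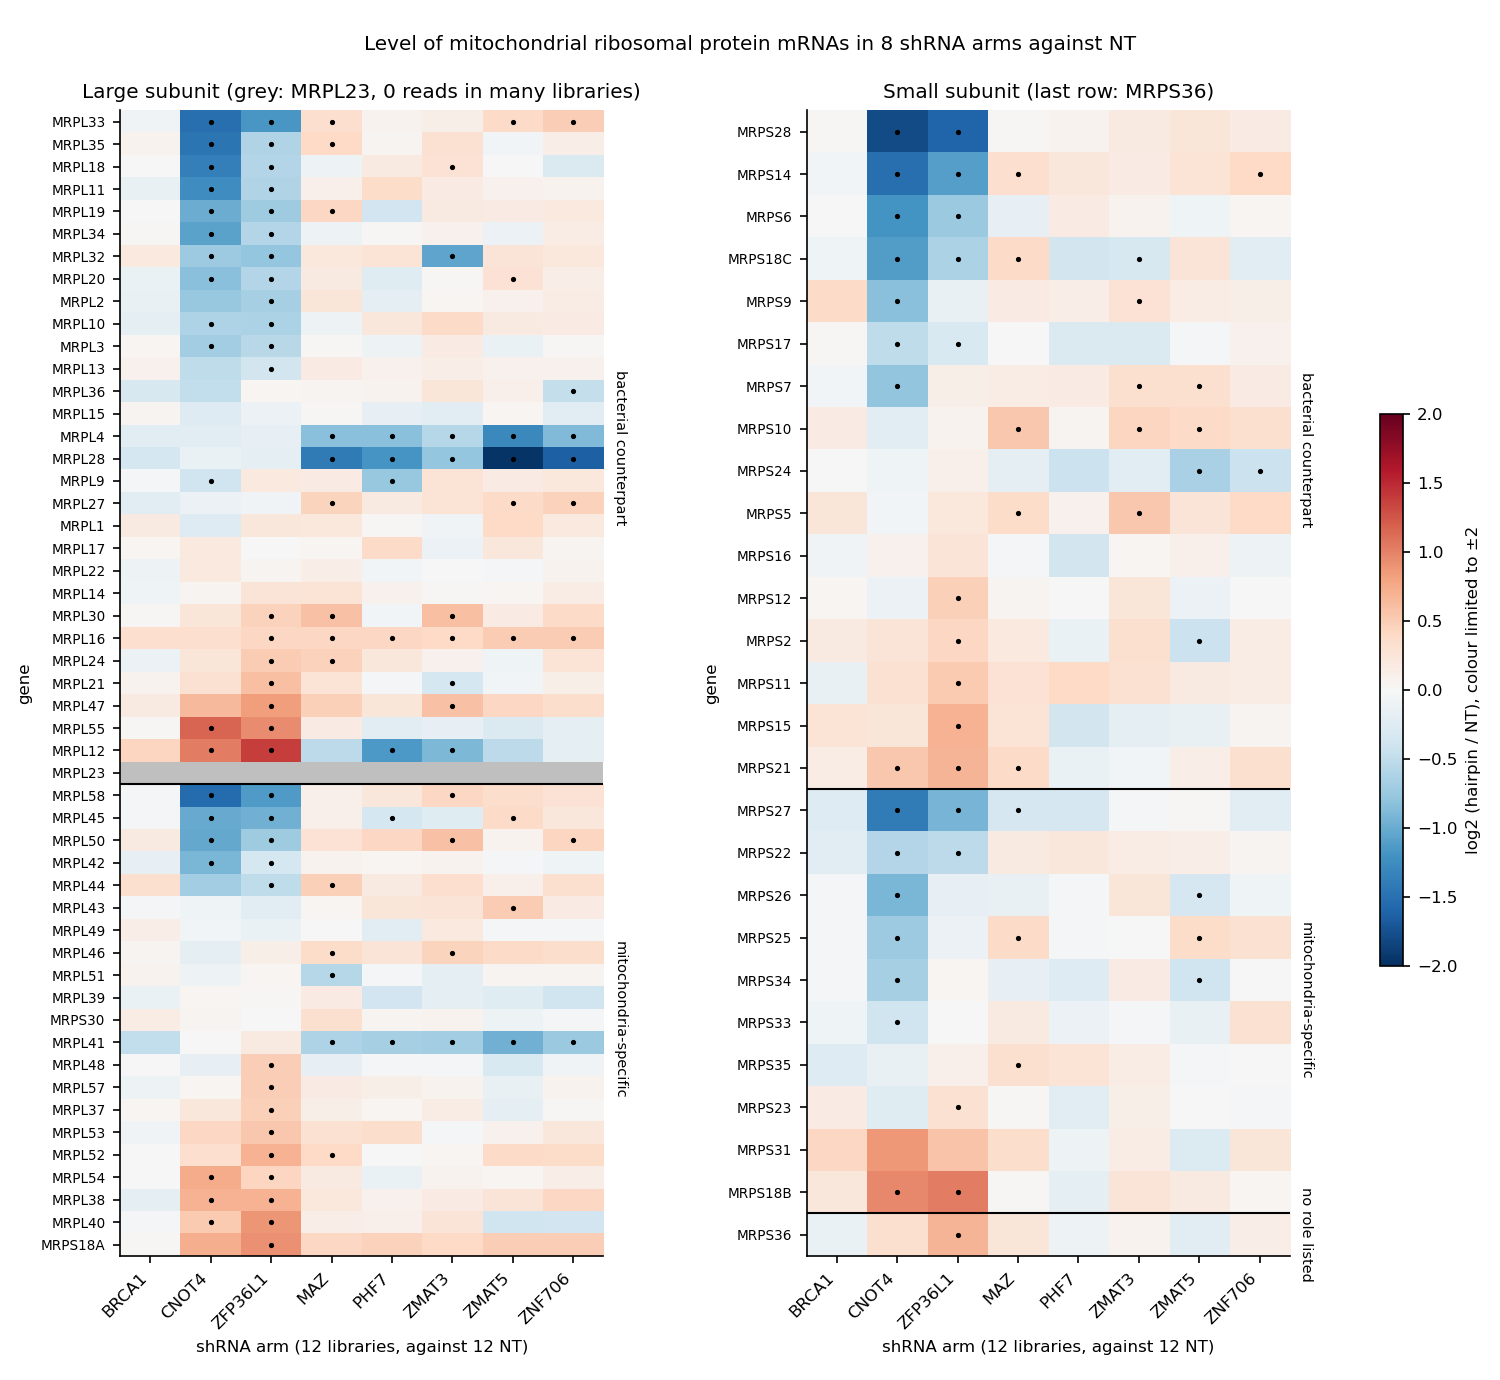
Fitted log2 difference in level between each shRNA arm and NT (columns, 12 libraries each) for the members (rows), divided by subunit and by presence of a bacterial counterpart. Dots mark members called at an adjusted p under 0.05 and a fold over 1.2. CNOT4 and ZFP36L1 show dark cells in both directions, MRPL28, MRPL4 and MRPL41 are lower in 5 other arms, and BRCA1 has no call.

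Across all 9 arms, the level of 69 of the 78 members differed (edgeR's quasi-likelihood F-test, adjusted p under 0.05 over all genes), where 65.5% of the 14962 genes tested did so. The median F of the members was 8.24 and that of all genes 3.43. Members were better covered as a set. In NT, 76 of the 78 members had enough reads for the fit of label loss below, against 7630 of all genes. The part of expression level in these values, and in the shares called in single arms below, was not tested. The 6 members with the largest F were MRPS28 (51.4), MRPL33 (50.9), MRPS14 (45.8), MRPL55 (44.4), MRPL12 (43.8) and MRPL58 (32.7). The 9 members that were not called were MRPS23, MRPL47, MRPS11, MRPL14, MRPL15, MRPL22, MRPS30, MRPL23 and MRPL49. MRPL23 had so few reads that its median level was 0 in NT (highest library 3.28 CPM), and its fitted differences are not described.

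The fits of the single arms all use the same 12 NT libraries, so their results are not independent of each other and are given side by side. Here a member is called when its adjusted p is under 0.05 and its level differs by more than 1.2-fold, and it is then said to have risen or fallen. All 78 members passed the filter on low counts in each of the 8 comparisons.

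In the CNOT4 arm, 28 members fell and 7 rose, where 13.5% of the 13308 genes tested fell and 13.5% rose. The median difference was -0.16 on the log2 scale for members and 0.08 for all genes. Of the small subunit, 13 of 26 members fell and 2 rose, and of the large subunit 15 of 51 fell and 5 rose. Leaving out replicate number 2 at every time gave 20 calls in place of 35, leaving out number 1 gave 22 and leaving out number 3 gave 38, and the libraries of 0 to 4 h alone gave 25, with 6 risen and 19 fallen. In the libraries labelled ZFP36L1, 24 members fell and 24 rose, where 18.3% of 13253 genes fell and 21.7% rose, with medians of 0.04 for members and 0.15 for all genes. When a smooth of each library's counts on the GC content of the counted 3′ UTR was taken out, an alternative chosen after the data were seen, the split became 18 fallen and 2 risen in CNOT4, and 35 fallen and 10 risen in ZFP36L1, while the median of all genes in ZFP36L1 moved from 0.15 to -0.11. Splits under this setting and counts of level calls under the other alternatives, here and for the arms below, are given without the share of all genes. They are not read as a trait of the members.

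MRPS28, the small subunit counterpart of bacterial S1, had the largest F. Its level ran from 67.5 CPM through a median of 96.4 to 157 CPM in NT. Here CPM is the count of a gene relative to the 3′ UTR reads of its library, after edgeR's TMM scaling between libraries. In the libraries labelled ZFP36L1 it ran from 27.5 through 33.6 to 46.9 CPM, and in CNOT4 from 11.9 through 26.9 to 61.4 CPM. In both arms every library lay below every NT library. The log2 difference was -1.61 (SE 0.13, adjusted p = 3.4e-12) in ZFP36L1 and -1.79 (SE 0.23, adjusted p = 2.3e-07) in CNOT4 by edgeR's quasi-likelihood test, and none of the other arms was called.

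MRPS14, the small subunit counterpart of bacterial S14, lay between 141 and 259.6 CPM in NT with a median of 209.8 CPM. It lay between 79.8 and 103 CPM (median 93.2) in ZFP36L1 and between 45.9 and 91.1 CPM (median 73.4) in CNOT4, again without overlap with NT. The differences were -1.11 (SE 0.10, adjusted p = 3.5e-11) and -1.50 (SE 0.15, adjusted p = 1.4e-09) in edgeR's fits.

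MRPL33, a small protein of the large subunit, ran from 229 to 405 CPM in NT (median 300.3), from 86.9 to 199 CPM in ZFP36L1 (median 134) and from 21.1 to 170.1 CPM in CNOT4 (median 119.6). No library of either arm reached the lowest NT library, and edgeR gave -1.17 (SE 0.11, adjusted p = 8.9e-11) in ZFP36L1 and -1.51 (SE 0.19, adjusted p = 1.4e-07) in CNOT4. MRPS28, MRPS14 and MRPL33 stayed called in both arms under all 12 alternatives tried for ZFP36L1 and all 13 tried for CNOT4. MRPL58, a release factor of the peptidyl-tRNA hydrolase type that is also built into the large subunit, had edgeR differences of -1.13 (SE 0.12) in ZFP36L1 without overlap with NT. In CNOT4 it differed by -1.54 (SE 0.23), and there the highest library, at 119.6 CPM, overlapped the NT range of 103 to 206 CPM.

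In CNOT4 the 3 fallen members with the smallest p were MRPS14 (above), MRPL11 and MRPL42. MRPL11, a protein of the stalk base where translation factors bind, had between 48.8 and 131 CPM in CNOT4 and between 144 and 246 CPM in NT, without overlap (-1.24, SE 0.13, edgeR's adjusted p = 1.3e-08). MRPL42, a large subunit protein without a bacterial counterpart, ran from 146 through 170.3 to 206 CPM in CNOT4 and from 186 through 338 to 449 CPM in NT, so that the groups overlapped. Its difference was -0.92 (SE 0.11, adjusted p = 4e-08) in CNOT4 and -0.35 (SE 0.09, adjusted p = 0.0014) in ZFP36L1 by edgeR.

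The 3 risen members with the smallest p were MRPL55, MRPS18B and MRPS21, in CNOT4 and in ZFP36L1. MRPL55, the counterpart of bacterial L31, ran from 60.9 through 88.5 to 136 CPM in NT, from 155 through 205 to 240.0 CPM in CNOT4 and from 145 through 169 to 216 CPM in ZFP36L1. Neither arm overlapped NT, and edgeR gave 1.17 (SE 0.13, adjusted p = 1.1e-08) and 0.95 (SE 0.10, adjusted p = 4.5e-10). Its counted 3′ UTR held only 83 bases, and with the counted length taken out in the same way as GC content the value in ZFP36L1 turned to -0.38.

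MRPS18B is 1 of 3 human relatives of bacterial protein S18, which occupy different places in the mitochondrial ribosome. It ran from 93.4 to 221 CPM in NT, from 227 to 343 CPM in CNOT4 (0.96, SE 0.13) and from 255 to 400.3 CPM in ZFP36L1 (1.02, SE 0.12), without overlap. All of its reads (100%) mapped to more than 1 place, so its counts may hold reads of another copy. Of its relatives, MRPS18C fell by 1.11 (SE 0.35) on the log2 scale in CNOT4 and by 0.63 (SE 0.11) in ZFP36L1, and MRPS18A, which sits in the large subunit, rose in ZFP36L1 (0.91, SE 0.21) and was not called in CNOT4 (0.73, SE 0.40). MRPS21, the counterpart of bacterial S21, rose by 0.54 (SE 0.10) in CNOT4 and 0.68 (SE 0.08) in ZFP36L1, with groups that overlapped NT.

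**Figure D2:**
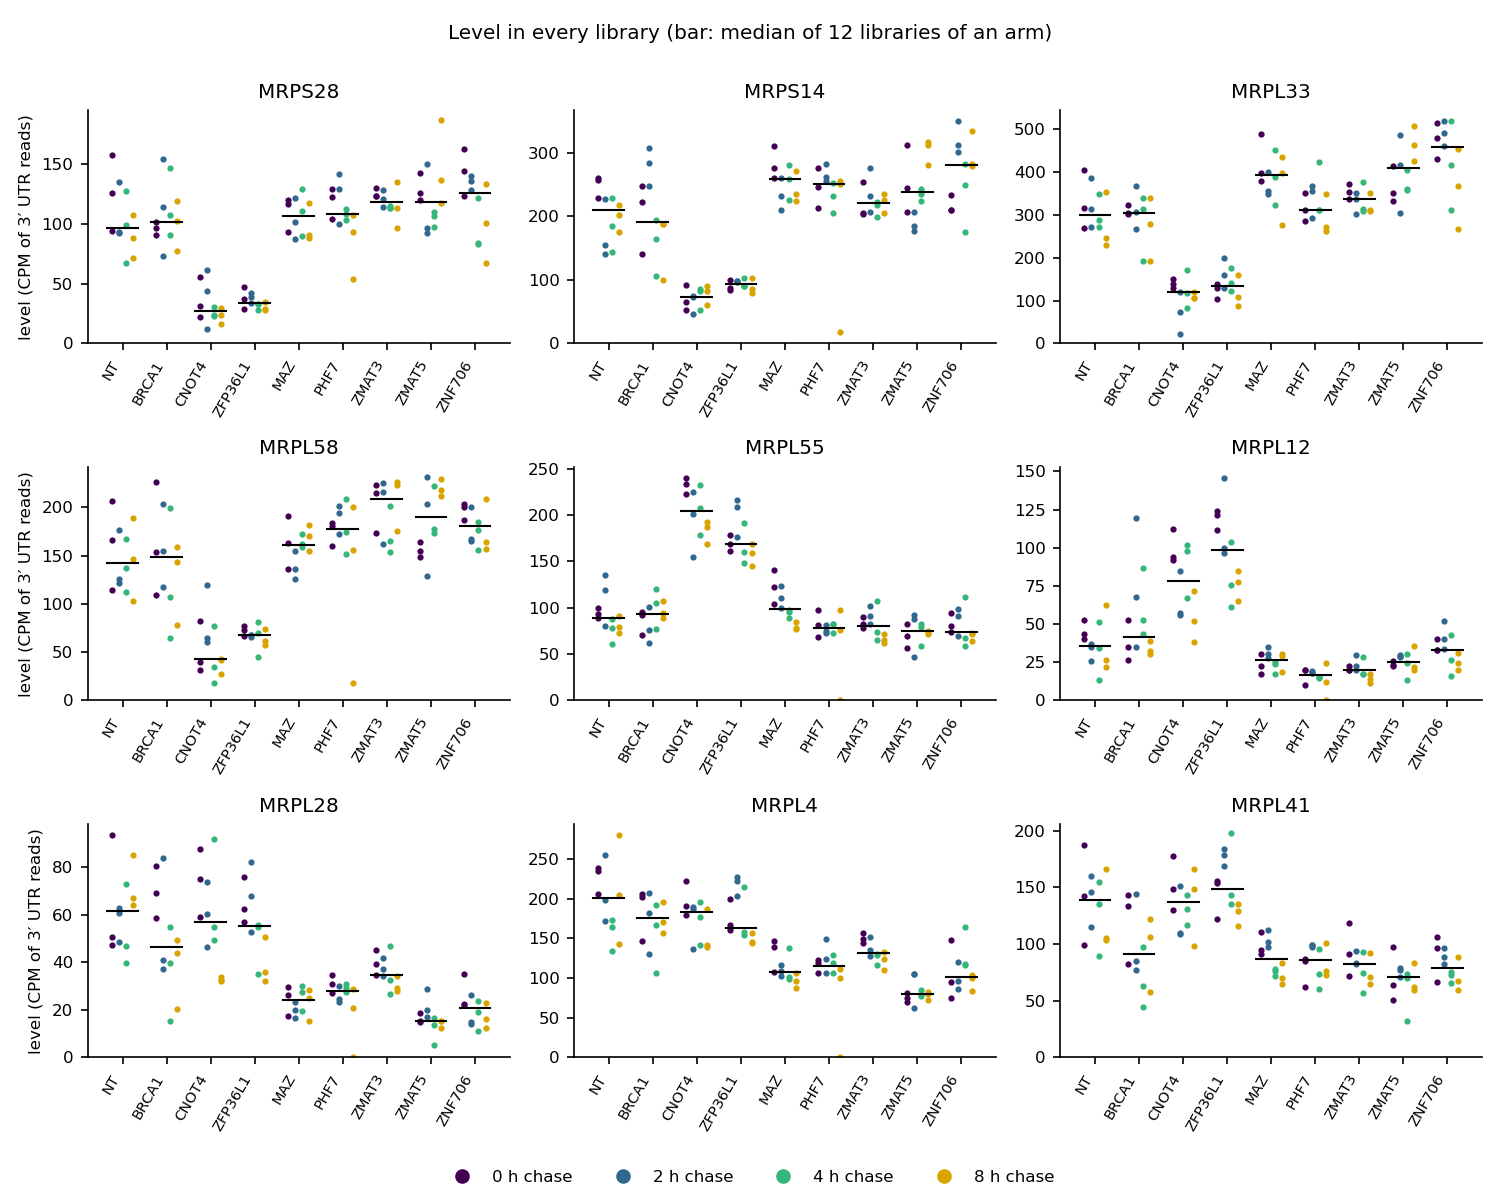
Level of 9 members in CPM (vertical axis, linear from 0) in each of the 108 libraries, by arm and coloured by chase time, with the median of an arm as a bar. MRPS28, MRPS14, MRPL33 and MRPL58 are low and MRPL55 and MRPL12 high in CNOT4 and ZFP36L1, while MRPL28, MRPL4 and MRPL41 are low in MAZ, PHF7, ZMAT3, ZMAT5 and ZNF706. The points at or near 0 in PHF7 belong to the library of 63659 reads.

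In a different set of arms, MRPL28, MRPL4 and MRPL41 were lower than in NT, 3 large subunit mRNAs with GC-rich 3′ UTRs. MRPL28, the counterpart of bacterial L28, was counted over chr16:367385-367677 (hg38, minus strand, 3′ UTR). Its NT libraries ran from 39.8 through 61.7 to 93.4 CPM. In ZMAT5 it ran from 5.04 through 15.2 to 28.7 CPM, in ZNF706 from 11.2 through 20.6 to 35.2 CPM, and in MAZ from 15.1 through 24.0 to 30.03 CPM. In PHF7 it ran from 0, in the library of 63659 reads, through 28.1 to 34.6 CPM, and in ZMAT3 from 26.4 through 34.4 to 46.7 CPM. All libraries of ZMAT5, ZNF706, MAZ and PHF7 lay below the lowest NT library, whereas ZMAT3 overlapped NT. The median depth of these arms ran from 17141085 reads (ZMAT5) to 21007825 (ZNF706), against 10187470 in NT and 8901564 in BRCA1. It was 4529224 in CNOT4 and 6158870.5 in ZFP36L1. The part of depth in these differences was not tested.

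By edgeR's quasi-likelihood test the log2 difference of MRPL28 from NT was -1.96 (SE 0.22, adjusted p = 1.6e-08) in ZMAT5, -1.64 (SE 0.21, adjusted p = 5.4e-07) in ZNF706 and -1.41 (SE 0.18, adjusted p = 4.7e-07) in MAZ. It was -1.18 (SE 0.20) in PHF7 and -0.78 (SE 0.16) in ZMAT3, both called. In BRCA1 (-0.36), CNOT4 (-0.14) and ZFP36L1 (-0.18) MRPL28 was not called. Against the libraries of the other 7 hairpins in place of NT, MRPL28 stayed called in ZMAT5 (-1.23) and ZNF706 (-0.90) and was not called in MAZ (-0.64), PHF7 (-0.43) or ZMAT3 (0.04).

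MRPL4, the counterpart of bacterial L4, which lines the exit tunnel, was counted mainly over chr19:10259505-10260045 (hg38, plus strand, 3′ UTR). It ran from 134 through 202 to 280.3 CPM in NT and from 62.4 through 79.8 to 105 CPM in ZMAT5, without overlap. Its difference was -1.29 (SE 0.12, adjusted p = 1.6e-10) there by edgeR, -0.88 in ZNF706, -0.83 in MAZ, -0.83 in PHF7 and -0.57 in ZMAT3, and these last 4 arms overlapped NT. MRPL41, a large subunit protein without a bacterial counterpart, was called in the same 5 arms with differences between -0.62 and -0.96, and every arm overlapped the NT range of 89.0 to 187 CPM. Against the other 7 hairpins, ZMAT5 alone stayed called for MRPL4 (-0.79) and for MRPL41 (-0.58).

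In MAZ, 17 members rose and 5 fell, where 5.19% of 13398 genes rose and 3.55% fell, with medians of 0.17 and 0.08. Without replicate number 2 there were 8 calls in place of 22, without number 3 there were 9 and without number 1 there were 10, and with GC content taken out 3 rose and 10 fell while the median of all genes moved from 0.08 to -0.06. The risen members with the smallest p were MRPS10, MRPL30 and MRPS21, and the fallen ones MRPL28, MRPL4 and MRPL51. MRPS10, the counterpart of bacterial S10, ran from 142 through 184 to 234 CPM against 81.2 through 128 to 161 CPM in NT. The groups overlapped, with a difference of 0.55 (SE 0.10, edgeR's adjusted p = 0.0004). MRPL30 rose by 0.59 (SE 0.12) and MRPS21 by 0.38 (SE 0.08). MRPL51, a large subunit protein without a bacterial counterpart, ran from 191 through 231 to 308 CPM in MAZ and from 253 through 351 to 419 CPM in NT, with overlap (-0.56, SE 0.08).

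In ZMAT3, 11 members rose and 7 fell, where 5.49% of 13307 genes rose and 4.75% fell. With GC content taken out, 3 rose and 12 fell, and without 1 replicate number at a time there were 10 (number 3), 12 (number 1) and 14 calls in place of 18. MRPL32, a large subunit protein that is trimmed by a protease in the matrix before it is assembled, had the smallest p. It ran from 42.9 through 68.5 to 82.8 CPM in ZMAT3 and from 90.8 through 135 to 198 CPM in NT. The groups did not overlap, and the difference of -1.05 (SE 0.12, adjusted p = 1.5e-07 by edgeR) stayed called under all 12 alternatives, including the other 7 hairpins as comparator (-1.07). MRPL32 was also lower in ZFP36L1 (-0.78, SE 0.12) and CNOT4 (-0.73, SE 0.20), and not called in the other 5 arms. The other fallen members with the smallest p were MRPL4 and MRPL41. The risen ones were MRPS5, the counterpart of bacterial S5 (0.55, SE 0.09), MRPL30 (0.61, SE 0.12) and MRPL50 (0.59, SE 0.13), and each overlapped NT.

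In ZMAT5, 9 members rose and 7 fell, where 5.29% of 13149 genes rose and 4.22% fell, and with GC content taken out 2 rose and 8 fell. The 16 calls became 7 without replicate number 3, 8 without number 1 and 12 without number 2. Beside MRPL4, MRPL28 and MRPL41, the 3 risen members with the smallest p were MRPL16 (0.51, SE 0.12), MRPL43 (0.51, SE 0.12) and MRPL45 (0.38, SE 0.09). Of the MRPL45 reads, 99.1% mapped to several places, and without such reads its difference was 0.25 and not called.

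In ZNF706, 5 members rose and 5 fell, where 2.85% of 13072 genes rose and 2.29% fell, and with GC content taken out 1 rose and 6 fell. MRPL33 (0.49, SE 0.10), MRPL27 (0.46, SE 0.11) and MRPL16 (0.51, SE 0.13) led the risen members, and MRPL28, MRPL4 and MRPL41 the fallen ones. The count of calls was 3 without replicate number 2, 6 without number 1 and 8 without number 3, in place of 10.

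In PHF7, 1 member rose and 6 fell, where 3.89% of 13324 genes rose and 4.53% fell. Without the library of 63659 reads the count of calls went from 7 to 13, and it was 1 without replicate number 1, 3 without number 2 and 9 without number 3. MRPL9, the counterpart of bacterial L9, ran from 81.3 through 114 to 134 CPM in PHF7 and from 123 through 188 to 246 CPM in NT, with overlap (-0.75, SE 0.13, edgeR's adjusted p = 0.00019). MRPL16, the counterpart of bacterial L16, was the risen member (0.41, SE 0.13, adjusted p = 0.046), and its difference from the other 7 hairpins was -0.013.

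In BRCA1, none of the 78 members was called by edgeR or DESeq2, where 0.0393% of 12735 genes rose and 0.0393% fell. Of the members, 3 had an unadjusted p under 0.05, as did 877 of all genes, and the median difference was -0.01 for members and -0.03 for all genes.

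MRPL12, the stalk protein that recruits translation factors, had the most GC-rich counted 3′ UTR of all members (69.1%). It ran from 13.6 through 35.8 to 62.2 CPM in NT, from 60.8 through 98.3 to 146 CPM in ZFP36L1 and from 38.5 through 78.1 to 112 CPM in CNOT4, overlapping in both. The differences were 1.38 (SE 0.18, adjusted p = 1e-07) in ZFP36L1, 1.03 (SE 0.23) in CNOT4, -1.15 (SE 0.26) in PHF7 and -0.89 (SE 0.23) in ZMAT3 by edgeR. With GC content taken out, those of ZFP36L1 and CNOT4 became -0.0019 and 0.35, and neither was called.

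The base composition of the counted 3′ UTR moved with several of these results. Its GC content had a median of 43.7% over the 78 members (range 20.6% to 69.1%) and 42.9% over the 14063 genes tested in any arm, and the counted length had medians of 717.5 and 1913 bases. MRPL28 (66.6%), MRPL4 (60.7%), MRPL41 (59.7%) and MRPL55 (56.6%) were on the GC-rich side, and MRPS28 (34.2%), MRPL33 (35.7%) and MRPS14 (39.6%) on the GC-poor side. Members that rose in CNOT4 had a median of 56.6% and those that fell 41.1%, whereas in ZMAT5 those that rose had 42.9% and those that fell 57.0%. Across 77 members, Spearman's rho between GC content and the log2 difference was 0.27 in CNOT4, 0.29 in ZFP36L1, -0.29 in MAZ, -0.20 in ZMAT5, -0.20 in BRCA1, -0.16 in PHF7, -0.12 in ZNF706 and -0.06 in ZMAT3. Across all genes it was 0.17 in CNOT4, 0.16 in ZFP36L1 and between -0.10 and 0.04 in the other 6 arms. This is a description across genes of the same libraries, without a test.

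With GC content taken out, MRPL28 kept its call in MAZ (-1.29), PHF7 (-1.01), ZMAT3 (-0.70), ZMAT5 (-1.60) and ZNF706 (-1.26), and was also called in ZFP36L1 (-1.32). MRPL4 kept its call in the same 5 arms and was also called in ZFP36L1 (-0.82). MRPS28 differed by -1.69 in ZFP36L1 and -1.28 in CNOT4 under this setting, MRPS14 by -1.28 and -1.24, and MRPL33 by -1.27 and -1.30, all called. The part of read length in these differences was not tested. Every CNOT4 and ZFP36L1 library covered fewer T positions a read than every NT library. In these arms, hairpin and kind of library therefore cannot be told apart.

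**Figure D3:**
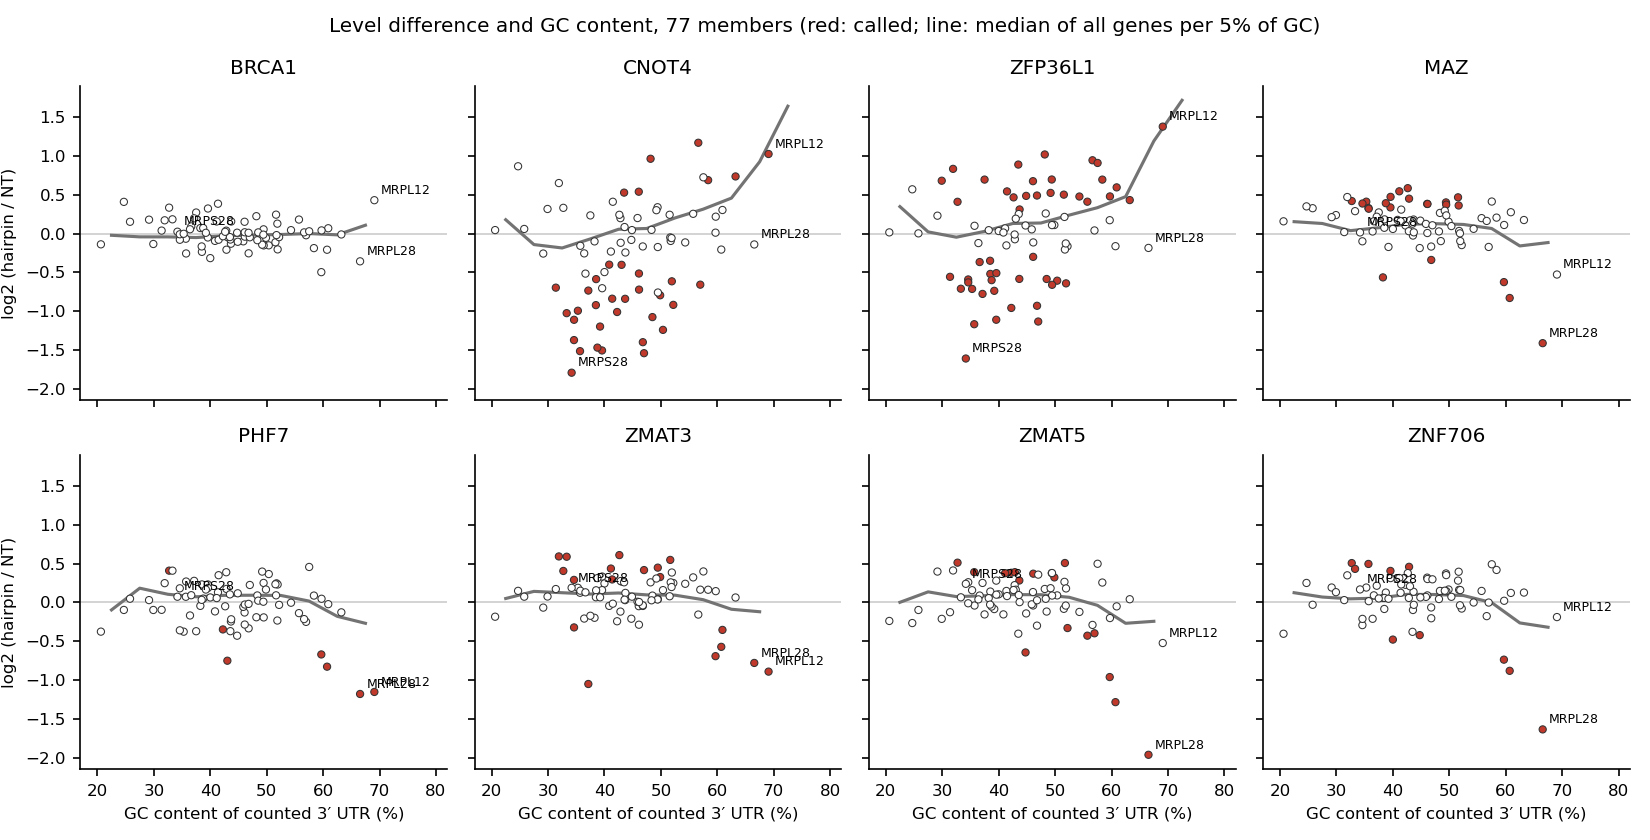
Log2 difference in level between each arm and NT (vertical axis) against the GC content of the counted 3′ UTR in percent (horizontal axis) for 77 members, with called members in red and the median of all genes per 5% of GC content as a line. In CNOT4 and ZFP36L1 the line rises at high GC content, where MRPL12 lies, and MRPL28 lies far below the line in ZMAT5 and ZNF706.

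ZFP36L1 is known as a protein that binds AU-rich elements in 3′ UTRs and recruits the deadenylase machinery, so the core of such an element, TATTTAT on the transcribed strand, was searched in the counted 3′ UTRs. It occurred in 13 of 78 members (16.7%) and in 38.2% of the 14063 genes. These shares are not adjusted for the counted length, whose median was 717.5 bases in members and 1913 in all genes. Within the last 100 counted bases, where 3′ end reads fall, it occurred in 2 of 73 members with that many bases and in 4.75% of 13701 genes. Windows are shown for 5 members that fell in the libraries labelled ZFP36L1 and for 1 that rose, chosen after their values were seen. The site of MRPL33 lies 52 bases from the end of its counted interval. The others lie from 1074 (MRPL57) to 9143 bases (MRPL42) from it. The motif is in capitals and the strand of the gene is read 5′ to 3′ (hg38).
MRPL33, chr2:27779672-27779701, plus strand: tgcatcacattTATTTATctttctgggtat
MRPL19, chr2:75656728-75656757, plus strand: gtgtgggtctaTATTTATccattgtattgg
MRPL35, chr2:86211659-86211688, plus strand: tgaaagataggTATTTATtttttctagaga
MRPL42, chr12:93507053-93507082, plus strand: tcttatatgtaTATTTATgcatatacatac
MRPL50, chr9:101390216-101390245, minus strand: aattaggtcatTATTTATgaaaagttttga
MRPL57, chr13:21177993-21178022, plus strand: gaagtaaaagaTATTTATcagagctgttac

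Of the 13 members with the motif, 2 rose and 6 fell in the libraries labelled ZFP36L1, with a median difference of -0.07, and of the 65 without it 22 rose and 18 fell, with a median of 0.11. Among all genes, 19.6% of 5110 with the motif rose and 18.7% fell, against 23.1% and 18.0% of 8143 without it. MRPL33 (-1.17), MRPL19 (-0.71), MRPL50 (-0.71), MRPL35 (-0.60) and MRPL42 (-0.35) fell and MRPL57 rose (0.49). In CNOT4, 0 of the 13 rose and 6 fell, and of the 65 without the motif 7 rose and 22 fell. Among all genes there, 13.8% of 5149 with the motif rose and 12.9% fell, against 13.3% and 13.9% of those without it. In ZMAT3, 3 of the 13 rose and 0 fell, and of the 65 without the motif 8 rose and 7 fell. Of all genes in ZMAT3, 4.76% of 5149 with the motif rose and 3.44% fell, against 5.96% and 5.58% without it. The 13 members with the motif had a GC content from 33.3% (MRPL50) to 45.9% (MRPL22). In ZFP36L1, members that rose had a median GC content of 48.7% and those that fell 39.0%, with or without the motif. The part of GC content in the splits by motif was not tested. A match shows only that these letters are present.

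MAZ is known to bind G-rich promoter sequence, and GGGAGGG was searched on both strands of RefSeq promoters (GRCh38.p14, 250 bases before to 50 after the start). Promoters were matched for 69 members, and 12 of them (17.4%) held the motif, as did 30.6% of 15127 promoters of genes in the tables. In the MAZ arm 4 of the 12 rose and 0 fell, and of the 57 without it 12 rose and 5 fell. Of all genes with the motif 4.15% of 3471 rose and 3.98% fell, against 5.06% and 3.56% of the 7230 without it. The 4 risen members are shown, chosen after their values were seen, with the motif in capitals.
MRPL24, chr1:156741091-156741120, minus strand: gggcgtggcggGGGAGGGgacgctgagggc
MRPL30, chr2:99181092-99181121, plus strand: ctttcctgagtGGGAGGGatttcgccggaa
MRPL46, chr15:88467609-88467638, minus strand: gGGGAGGGgacagaagggaaagtcatctac
MRPS18C, chr4:83455886-83455915, plus strand: cctgccgcgtaGGGAGGGcacgaacagaaa
None of the 5 members that fell in MAZ had it in this window. The motif of MRPL46 is also that of MRPS11, whose gene starts in the opposite direction from the same region. The ETS-type core CCGGAAGT, on both strands, was present in 15.9% of members' promoters and 6.35% of all. A motif of the factor NRF1 was also searched, and it was present in 1.45% of members' promoters and 1.74% of all. These shares are given without a test.

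The other genes of mitochondrial translation were read from lists. Of 5 proteins of the mitochondrial ribosome with other names, GADD45GIP1, a large subunit protein near the tunnel exit, fell in PHF7 (-1.24), ZMAT5 (-1.26), ZNF706 (-1.004), ZMAT3 (-0.91) and MAZ (-0.59). AURKAIP1 and PTCD3, both of the small subunit, rose in CNOT4 (0.75 and 0.79) and ZFP36L1 (1.18 and 0.80). In all, 2 of the 5 rose and 0 fell in CNOT4, and 2 rose and 1 fell in ZFP36L1.

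Of 15 mitochondrial translation factors, 1 rose and 2 fell in CNOT4, 2 rose and 4 fell in ZFP36L1, 0 rose and 3 fell in ZMAT5, and at most 1 moved each way elsewhere. TSFM, an elongation factor, fell in CNOT4 (-1.44, SE 0.16) and ZFP36L1 (-1.39, SE 0.12), and the initiation factor MTIF3 fell in PHF7 (-1.02) and ZMAT3 (-0.85). Of 20 mitochondrial aminoacyl-tRNA synthetases and related genes, 4 rose and 2 fell in CNOT4 and 4 rose and 4 fell in ZFP36L1, and in the other arms 0 to 3 rose and 0 fell. IARS2, which charges the isoleucine tRNA, fell in both (-3.05, SE 0.20, and -1.38, SE 0.10).

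Of 26 assembly factors, 2 rose and 4 fell in CNOT4, 3 rose and 6 fell in ZFP36L1, and 5 rose and 0 fell in ZMAT3, among them RCC1L (0.60, SE 0.11). Of 14 genes of mitochondrial transcription and its nuclear regulators, 1 rose and 7 fell in CNOT4, 2 rose and 5 fell in ZFP36L1, and 1 rose and 3 fell in MAZ. TFAM, which packs mitochondrial DNA and takes part in its transcription, fell in CNOT4 (-0.99, SE 0.15) and ZFP36L1 (-0.97, SE 0.10).

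The uridine chase itself left no call among the members. In NT, 0 of 78 members differed between 8 h and 0 h by edgeR (9 with an unadjusted p under 0.05), where 0% of 12126 genes were called (615 with an unadjusted p under 0.05). The median difference was -0.15 for members and -0.01 for all genes. A dependence of the arm difference on chase time was called for 0 members in any arm (0 to 6 with an unadjusted p under 0.05, beside 636 to 1161 of all genes), where 0.571% of genes were called in CNOT4, 0.0157% in BRCA1 and 0% in the other 6 arms. Without the CNOT4 library of 1781724 reads, MRPS18C was called there (edgeR's adjusted p = 0.0028), and over 0 to 4 h, without the pulse-chase libraries, 0 members were.

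The T>C label of the members was read as the percent of covered T positions that were converted. Pooled over members, it was 1.84% ± 0.11 (SD, n = 3 libraries) at 0 h in NT, 1.62% ± 0.12 at 2 h, 1.23% ± 0.06 at 4 h and 0.71% ± 0.03 at 8 h. The pooled rate of all other genes went from 1.75% ± 0.07 to 0.61% ± 0.03. Members thus stood at 1.05 ± 0.02 times the rate of the other genes at 0 h, 1.196 ± 0.05 times at 2 h, 1.22 ± 0.03 times at 4 h and 1.17 ± 0.10 times at 8 h. Over the 12 libraries of an arm the mean ratio was between 1.05 (ZFP36L1) and 1.16 (BRCA1, NT). An unlabelled library was not used here, so these rates include any conversion that is not due to 4sU.

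The fitted loss of label in NT had a median of 0.128 per h over 76 members and 0.200 per h over all 7630 genes with enough reads, which correspond to half-lives of 5.42 h and 3.47 h. Of the 76 members, 58 lost label more slowly than the median gene. The median was 0.114 per h for the large subunit (50 members) and 0.130 per h for the small subunit (25 members). Among the other lists it was 0.115 per h for translation factors, 0.220 per h for aminoacyl-tRNA synthetases, 0.245 per h for transcription and its regulators, 0.283 per h for assembly factors and 0.0449 per h for 77 cytosolic ribosomal proteins. The members' median lay between those of the cytosolic ribosomal proteins and of the assembly factors. These medians are descriptions of the NT libraries.

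**Figure D4:**
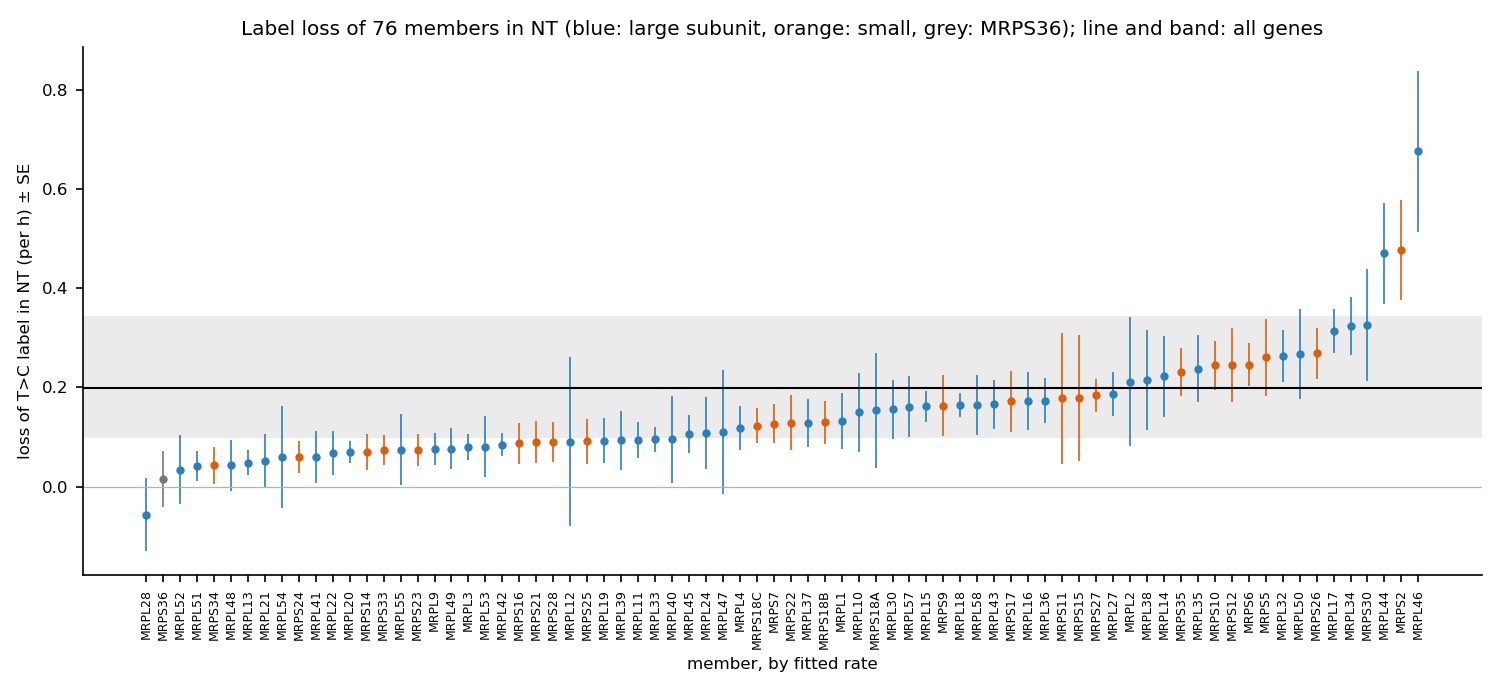
Fitted loss of T>C label per hour in NT with its standard error (vertical axis) for 76 members in order of the rate, in blue for the large subunit, orange for the small subunit and grey for MRPS36. The line and band are the median (0.200 per h) and quartiles (0.09999 to 0.341 per h) of all genes, and 58 members lie below the line.

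MRPL46, MRPS2, MRPL44 and MRPS30 had the fastest loss in edgeR's fit. The order depends on the fit, since the first-order curves below rank the members differently. MRPL46, a large subunit protein without a bacterial counterpart, had a label of 2.46% ± 0.53 (SD, n = 3) at 0 h, 1.26% ± 0.64 at 2 h, 0.877% ± 1.2 at 4 h and 0.00501% ± 0.0055 at 8 h in NT, and a fitted rate of 0.676 per h (SE 0.16). MRPS2, the counterpart of bacterial S2, went from 1.55% ± 0.95 at 0 h to 0.0537% ± 0.051 at 8 h (0.477 per h, SE 0.10). MRPL44, whose fold resembles that of ribonuclease III, went from 2.17% ± 0.91 to 0.0487% ± 0.066 (0.470 per h, SE 0.10). MRPS30 had a rate of 0.326 per h (SE 0.11).

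At the other end, MRPL28 had a fitted rate of -0.056 per h (SE 0.073), with 1.68% ± 0.35 at 0 h and 2.24% ± 1.7 at 8 h. Its 8 h value rests on 39909 covered T positions in 3 libraries, and a negative rate gives no half-life. MRPS36 (0.015 per h, SE 0.057), MRPL52 (0.034, SE 0.070) and MRPL51 (0.042, SE 0.031) also had rates within 2 SE of 0. MRPS36 reads mapped to several places in 99.8% of cases.

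**Figure D5:**
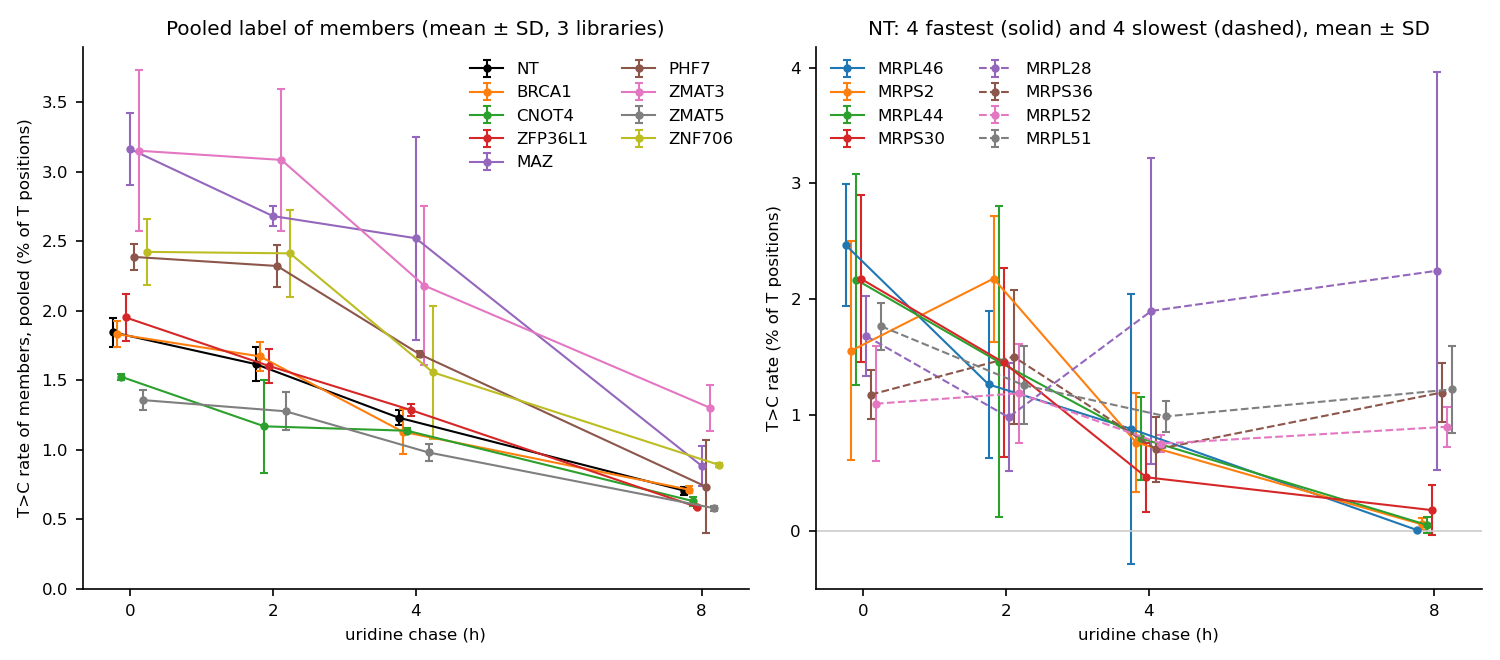
Left, T>C rate pooled over the members in percent of covered T positions (vertical axis) against hours of uridine chase for the 9 arms, as mean and SD of 3 libraries. Right, the same for the 4 members with the fastest and the 4 with the slowest fitted loss in NT, where the fast members end near 0 at 8 h and MRPL28 does not decline.

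A first-order curve through the replicate means, with genes kept at an R2 over 0.6, gave a median half-life of 5.74 h for 52 members in NT and 3.27 h for 5533 genes. The curves through the libraries of each replicate number alone gave 4.46, 4.44 and 4.21 h. In the curves through NT replicate means, MRPL24 (1.78 h), MRPL17 (2.16 h) and MRPL46 (2.22 h) had the shortest half-lives, named after their values were seen. No half-life was accepted for MRPS2 there. In the hairpin arms the members' median was 5.12 h in CNOT4, 5.51 h in ZFP36L1, 5.71 h in BRCA1, 6.42 h in ZMAT5, 6.44 h in ZNF706, 6.60 h in PHF7, 6.67 h in MAZ and 8.01 h in ZMAT3. The medians of all genes went from 3.25 h in BRCA1 to 5.06 h in ZMAT3, so that the members' median was above that of all genes within each arm. These medians rest on the members with an accepted half-life, from 40 of 77 in CNOT4 to 75 of 77 in ZMAT3. They are therefore not medians of the same members in each arm. The CNOT4 curve ends in the 8 h libraries of the other kind.

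No member was called for label loss in any arm against NT by edgeR, and none by limma on the log2 rate, nor in CNOT4 over 0 to 4 h alone. The members with an unadjusted p under 0.05 numbered 3 in BRCA1, 0 in CNOT4, 7 in MAZ, 7 in PHF7, 9 in ZFP36L1, 7 in ZMAT3, 4 in ZMAT5 and 6 in ZNF706. Among all genes those numbers were 510 of 7039 in BRCA1, 566 of 6914 in CNOT4, 514 of 7463 in MAZ, 763 of 7488 in PHF7, 718 of 7363 in ZFP36L1, 853 of 7499 in ZMAT3, 681 of 7312 in ZMAT5 and 554 of 7328 in ZNF706. By adjusted p, 0% were called in BRCA1, 0.0579% in CNOT4, 0.0402% in MAZ, 0.361% in PHF7, 0.149% in ZFP36L1, 0.653% in ZMAT3, 0.0684% in ZMAT5 and 0.0136% in ZNF706.

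MRPL46 had the smallest p of the members in ZMAT5, ZMAT3 and ZNF706. Its fitted rate was 0.164 per h in ZMAT5 against 0.660 in NT (difference -0.50, SE 0.14, edgeR's adjusted p = 0.20), 0.212 per h in ZMAT3 (-0.43, SE 0.14, adjusted p = 0.15) and 0.249 per h in ZNF706 (-0.40, SE 0.14, adjusted p = 0.38). MRPS23 had the smallest p in MAZ, at 0.182 against 0.0746 per h (adjusted p = 0.57), and in ZFP36L1, at 0.175 per h (adjusted p = 0.26). MRPS27 had it in PHF7, at 0.062 against 0.184 per h (adjusted p = 0.15), MRPS6 in BRCA1, at 0.0809 against 0.246 per h (adjusted p = 0.53), and MRPS2 in CNOT4, at 0.214 against 0.476 per h (adjusted p = 0.61). None of these passed the threshold.

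At 0 h the label of a member, relative to the pooled rate of its library, was called in no arm, where 0.0119% of genes were called in PHF7, 0.0367% in ZFP36L1 and 0% in the other 6 arms. Between 1 and 4 members had an unadjusted p under 0.05 in an arm, beside 300 (BRCA1, of 8080) to 904 (ZFP36L1, of 8167) of all genes. The smallest p belonged to MRPL18 in ZFP36L1 (-0.38 on the log2 scale, SE 0.11, edgeR's adjusted p = 0.27) and ZMAT3 (-0.28, adjusted p = 0.39), to MRPL34 in BRCA1, PHF7 and ZNF706 (-0.69, -0.39 and -0.40), to MRPS36 in MAZ (0.79), to MRPS18C in CNOT4 (-1.05) and to MRPL45 in ZMAT5 (0.55). The pooled rate of the libraries differed between arms (MAZ 3.16% and ZMAT5 1.36% over the members at 0 h), and without that scaling 38 of 77 members (49.4%) in MAZ and 25 (32.5%) in ZMAT3 were called, where 33.1% and 25.5% of all genes were.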

How the data were processed

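Read counts, covered T positions and T>C conversions were taken from the tables that the authors deposited per library, made with SlamDunk 0.4.3 per the file headers on hg38 per the labels. The authors deposited a read count, a CPM value and a conversion rate as a fraction for each 3′ UTR interval. Here the counts, T positions and conversions of the 69079 intervals were summed per Ensembl identifier and named with GENCODE release 44 (19501 of 19761 identifiers), CPM were recomputed from the sums, and the conversion fraction was checked against its parts. Depth was 63659 to 30750027 reads per library.

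Each hairpin's 12 libraries were compared with the 12 NT libraries by edgeR 4.0.16 (R 4.3.3; TMM scaling, filterByExpr, quasi-likelihood test, chase time as a factor), over all genes with Benjamini-Hochberg adjustment, and called at an adjusted p under 0.05 and a fold over 1.2. Label loss was the slope of conversions over chase hours with the log of covered T positions as offset. It was fitted for genes whose deposited CPM, summed per gene, exceeded 5 in 2 or more replicates at every chase time. DESeq2 1.42.0 and limma 3.58.1 served as alternatives. The fits of level and of label loss were tested on simulated counts for MAZ against NT, and the other fits were not.

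Named members are, per hairpin, the 3 risen and 3 fallen with the smallest p, the 6 with the largest F, the 4 fastest and 4 slowest in NT label, the member with the smallest p where none was called, and the MRPS18 genes. Members, gene lists and rules were chosen with earlier results of these data known. Replicate numbers did not pair hairpin with NT samples: deviations of same-numbered libraries correlated between -0.033 and 0.025 over genes. Whether same-numbered libraries of an arm at different chase times came from the same transduced cells was not tested. In MRPS24, MRPS18A, MRPL19, MRPL37, MRPS7, MRPS25, MRPL47, MRPL49, MRPS18C, MRPS28, MRPL30, MRPL38, MRPS17 and MRPL53 the counted bases are shared with another gene.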

Additional observations from a re-analysis of the deposited data

How the results depend on the processing

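The level differences of up to 3 risen and 3 fallen members with the smallest p in each arm, 40 in all, were recomputed under 484 alternatives in all: 429 kept direction and call, 52 lost the call and 3 changed sign, which were MRPL16 in PHF7 (-0.012725) and MRPL4 in ZMAT3 (4.78e-05) against the other 7 hairpins, and MRPL55 in ZFP36L1 with counted length taken out (-0.38). Of the other differences described, MRPL28 in ZMAT3 changed sign against the other 7 hairpins (0.04) and MRPL12 in ZFP36L1 with GC content taken out (-0.0019). Against the other 7 hairpins in place of NT, 6 members were called in BRCA1, 5 in MAZ, 6 in ZMAT3 and 4 in ZNF706. With GC content taken out, which was chosen after seeing the data, as was counted length, 20 were called in CNOT4, 13 in MAZ and 10 in ZMAT5, and with length taken out 22 in CNOT4. These counts, those against the other 7 hairpins and those for PHF7 that follow are given without the share of all genes. They are not read as a trait of the members. In PHF7, DESeq2 called 14, the fit without the library of 63659 reads 13 and the fit of 0 to 4 h 12. Without the library of 1781724 reads 1 member was called for a dependence on chase time in CNOT4. Without scaling to the pooled rate, 38 members in MAZ and 25 in ZMAT3 were called for label at 0 h, beside 33.1% and 25.5% of all genes. The median half-life in NT was 5.93 h over genes above 20 CPM, 4.98 h from a straight line through the natural log of the rate, 5.27 h at an R2 over 0.8 and 6.27 h with no R2 minimum. The causes were not tested.

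Leaving out each replicate number in turn, calls ranged from 20 to 38 in CNOT4, 8 to 10 in MAZ, 1 to 9 in PHF7, 41 to 47 in ZFP36L1, 10 to 14 in ZMAT3, 7 to 12 in ZMAT5, 3 to 8 in ZNF706 and 60 to 70 over the 9 arms, with 0 in BRCA1 and 0 for label loss and label at 0 h, and the half-life from 4.85 to 5.33 h. With the replicate number as a block, 31 members were called in CNOT4, 22 in MAZ, 5 in PHF7, 48 in ZFP36L1, 21 in ZMAT3, 17 in ZMAT5, 8 in ZNF706, 0 in BRCA1 and 69 over the 9 arms. The numbers did not pair hairpin with NT samples. MRPL16 in PHF7 lost its call under the block, and no count moved by over 1.5 times. The counts of level calls in this paragraph are given without the share of all genes. They are not read as a trait of the members. Upper quartile scaling was not run for PHF7, whose shallow library has an upper quartile of 0, and MRPS18B could not be fitted without reads that map to several places. Depth limits the label of single members, since a rate rests on the covered T positions of 3 libraries.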

Other observations

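The mRNA of MAZ was itself lower than in NT in CNOT4 (-0.93), ZFP36L1 (-0.997), PHF7 (-1.01), ZMAT3 (-0.65), ZMAT5 (-1.56) and ZNF706 (-0.97) by edgeR's quasi-likelihood test, beside the MAZ arm itself (-3.04). Its part in the levels of the members was not tested.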
